A study of Mus musculus with 15 samples.

Results

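Absorptive colonocytes of the mouse colon were followed in single cell RNA sequencing of the intestine of 5 mice. A cell was taken as a colonocyte if it came from the colon, carried no stem call from the authors and had at least 1 unique molecular identifier (UMI, a tag that counts each captured RNA molecule once) of at least 2 of 3 genes, Slc26a3, Aqp8 and Car4. The rule gave 505 colonocytes, 13.7% of 3674 colon cells without the stem call, among 4372 colon cells and 18919 cells in the series. Fat supplied 60% of kcal in the high fat diet, eaten by 3 mice, and 10% in the purified control diet of matching sucrose, eaten by 2 mice. All 5 mice were 6 months old, and all carried the Lgr5-eGFP-IRES-CreERT2 allele, in which green fluorescent protein and a tamoxifen-inducible Cre recombinase are made where the stem cell gene Lgr5 is active. Every one of the 18919 cells was called stem by the authors exactly when it held a UMI of Lgr5 or eGFP. Which length of the colon was taken, and how cells were freed from it, are not given in the sources used here. Members were thus chosen by the measured UMIs of Slc26a3, Aqp8, Car4, Lgr5 and eGFP, so differences between colonocytes and other colon cells are described with no test. Libraries were made with Seq-Well, which isolates single cells in small wells.

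Colonocytes line the upper crypt and the surface of the colon, where they take up salt and water. Slc26a3 exchanges chloride for bicarbonate across their luminal membrane, Aqp8 is a water channel, and Car4 is a carbonic anhydrase held on the outer face of that membrane, where it interconverts carbon dioxide and bicarbonate. These cells arise from dividing crypt cells, move up the crypt while they mature, and draw much of their energy from short-chain fatty acids that gut bacteria make. Genes that burn fatty acids are of interest here because the series is concerned with fatty acid oxidation under a high fat diet.

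The 250 bases before the transcription start of the 3 genes that chose the cells are shown so that their starts can be compared. The sequences are RefSeq's on GRCm38.p6, and all 3 genes matched by symbol. They lie at chr12:31437969-31438218 for Slc26a3, chr7:123462044-123462293 for Aqp8 and chr11:84957504-84957753 for Car4, each on the plus strand. The RefSeq start of Slc26a3 lies within the longer span that GENCODE gives the gene on mm10 (31390871 to 31473917). Capitals mark matches on either strand to the TATA word TATAAA, to the CDX2-like word TTTATNG, and to the HNF4-like words CAAAGTNCA and then CAAAGGTCA, the last of which was searched after the sequences had been read. The words TTTATNG and CAAAGTNCA occur in 10.2% and 1.21% of promoters.
Slc26a3: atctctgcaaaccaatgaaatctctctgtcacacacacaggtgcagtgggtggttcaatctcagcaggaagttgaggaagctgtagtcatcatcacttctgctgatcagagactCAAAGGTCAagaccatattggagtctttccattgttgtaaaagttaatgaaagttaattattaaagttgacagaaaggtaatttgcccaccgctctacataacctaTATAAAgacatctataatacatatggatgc
Aqp8: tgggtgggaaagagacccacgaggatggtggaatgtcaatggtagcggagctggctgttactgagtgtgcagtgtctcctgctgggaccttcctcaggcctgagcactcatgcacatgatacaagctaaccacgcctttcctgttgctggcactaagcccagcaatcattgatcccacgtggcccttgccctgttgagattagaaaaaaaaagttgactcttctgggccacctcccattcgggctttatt
Car4: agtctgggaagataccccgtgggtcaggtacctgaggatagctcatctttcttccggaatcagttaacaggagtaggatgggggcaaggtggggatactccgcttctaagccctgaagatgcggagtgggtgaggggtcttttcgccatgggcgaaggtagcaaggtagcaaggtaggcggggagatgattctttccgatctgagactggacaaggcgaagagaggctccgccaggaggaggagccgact
Only the Slc26a3 window held a match. TATAAA stood 30 to 25 bases before its start, and 13.0% of 27025 promoters of this length hold that word. CAAAGGTCA stood 136 to 128 bases before the start, and 0.407% of promoters hold it anywhere in their 250 bases, on either strand. The 3 windows differed in base composition, with 38.8% G and C in Slc26a3, 52.4% in Aqp8 and 56.4% in Car4.

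Colonocytes came almost entirely from 1 mouse of each diet. High fat diet mice 1, 2 and 3 gave 1, 2 and 139 colonocytes, and control mice 1 and 2 gave 2 and 361. As shares of the colon cells without the stem call, these were 0.213% of 470, 0.673% of 297 and 15.4% of 902 cells in the high fat diet mice, and 0.164% of 1216 and 45.8% of 789 cells in the control mice. Exact 95% binomial intervals, which cover counting error only, ran from 13.1 to 17.9% in high fat diet mouse 3 and from 42.2 to 49.3% in control mouse 2. The diets overlapped: control mouse 1 had the lowest share of all 5 mice and control mouse 2 the highest. The mean share was 5.43 ± 8.64% on the high fat diet (SD, n = 3) and 22.96 ± 32.24% on the control diet (SD, n = 2). The difference, high fat minus control, was -17.5 percentage points, with a two-sided exact permutation p of 0.7, and the smallest p that 3 mice against 2 allow is 0.1. Without control mouse 2 the difference turned to 5.27 percentage points.

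**Figure D1:**
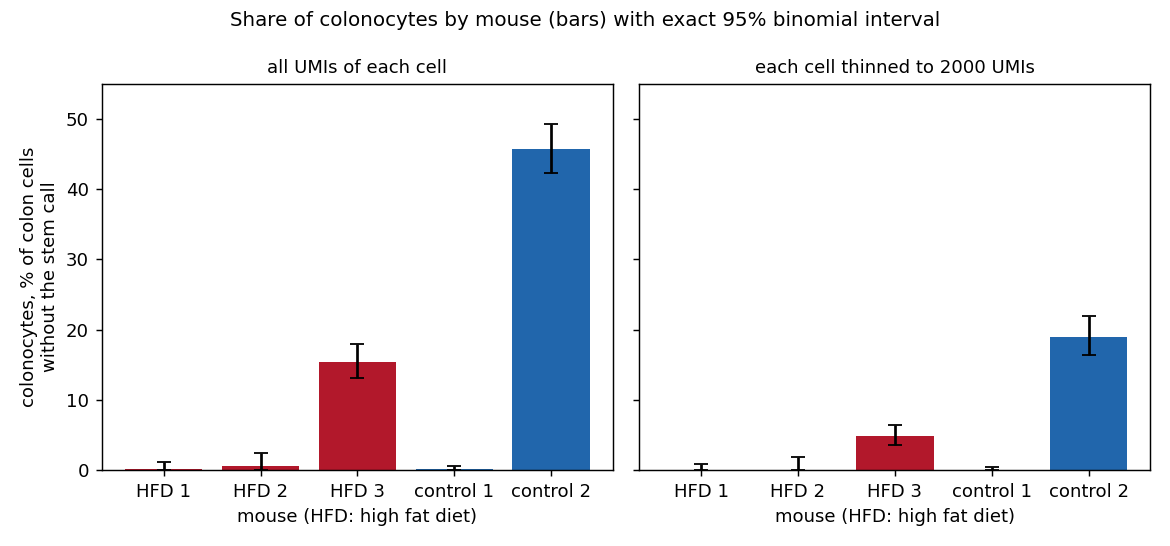
Colonocytes as a percentage of colon cells without the stem call in each mouse, with exact 95% binomial intervals, from all UMIs (left) and after each cell was thinned to 2000 UMIs (right). High fat diet mouse 3 (15.4% and 4.88%) and control mouse 2 (45.8% and 19.0%) stand apart from the other 3 mice, whose shares are 0.673% or lower.

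The 2 libraries that held the colonocytes also stood apart in other ways. Other colon cells had a median of 4257, 2584 and 18573 UMIs in high fat diet mice 1 to 3, and of 4745.5 and 15114.5 in control mice 1 and 2, so the 2 colonocyte-rich libraries were the 2 deepest. Their other cells also held more RNA of a list of 26 genes induced by tissue dissociation: the summed level was 2131, 1663 and 9320 CPM (UMIs of a gene scaled to a common library total) in high fat diet mice 1 to 3, and 2407 and 10200 CPM in control mice 1 and 2. With every cell thinned to 2000 UMIs and shallower cells left out (60, 109, 0, 21 and 0 cells in the same order of mice), the share of colonocytes was 0% of 410, 0% of 188 and 4.88% of 902 cells in the high fat diet mice. It was 0.0837% of 1195 and 19.0% of 789 cells in the control mice. At 3 counts of the total, the counts of 0 allow shares of up to 0.732% and 1.60%, and the exact 95% upper bounds drawn in the plot of shares are 0.896% and 1.94%. At equal depth, then, the same 2 mice stood above the other 3.

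Aqp8 was listed at 0 in all colon cells of high fat diet mice 1 and 2 and of control mouse 1, against 1655 UMIs in high fat diet mouse 3 and 6247 in control mouse 2. Each colon library listed between 2248 and 5180 of 17185 genes at 0, and only 138 to 538 genes in 1 to 4 cells but 302 to 329 in exactly 5. So few genes in 1 to 4 cells look like a removal of rare genes within each library, which no label records, and no limit on Aqp8 is drawn from its zeros. In those 3 mice only the pair of Slc26a3 and Car4 could meet the rule. Slc26a3 had 111, 46 and 2367 UMIs in high fat diet mice 1 to 3, and 144 and 4111 in control mice 1 and 2. Car4 had 14, 19 and 2728 UMIs in the high fat diet mice, and 11 and 10827 in the control mice. Slc26a3 and Car4 thus had fewer UMIs in the libraries of those 3 mice, which were also the shallower ones. In other colon cells Slc26a3 stood at 19.1, 3.65 and 23.9 CPM in high fat diet mice 1 to 3. It stood at 18.6 and 19.2 CPM in those of control mice 1 and 2. Car4 stood at 0.230, 0 and 10.2 CPM in other cells of the high fat diet mice, and at 1.07 and 20.6 CPM in those of the control mice.

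Of the 5 colonocytes from the colonocyte-poor libraries, 1 looked like those of the other mice. That cell, from high fat diet mouse 2, held 39228 UMIs, with 39 of Slc26a3, 17 of Car4, 144 of Krt20, a keratin of mature gut epithelium, and 518 of Lypd8, a luminal protein that binds flagellated bacteria. The other 4 cells held 1 or 2 UMIs of each of the 2 markers and 0 to 2 of Krt20. All values below come from the 139 colonocytes of high fat diet mouse 3 and the 361 of control mouse 2, summed per mouse and given in CPM of 3.66e+06 and 8.09e+06 UMIs. With 1 mouse per diet there is no replicate check, and no p is given for a comparison of these 2 sums. Colonocytes had a median of 22839 UMIs in high fat diet mouse 3 and 20838 in control mouse 2. Across all 5 colon libraries 1 cell barcode was shared.

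The colonocytes were also described with 12 colonocyte markers that the rule did not use. The list was drawn up with earlier results of these data known, so it is no independent check of the label. Colonocytes carried a median of 7 of the 12 in both mice, and other colon cells 4. After thinning to 2000 UMIs the medians were 6 in colonocytes and 2 in other cells of both mice. Of the 12, 9 reached 50 CPM in the colonocytes of at least 1 mouse, and 8 of these were at least 2-fold higher than in other cells in both mice. Among 4104 genes at 50 CPM or more in colonocytes of at least 1 mouse, 5.38% were 2-fold or more higher in both mice. Genes thus entered by their level in colonocytes only. Folds are ratios of CPM with 10 CPM added to both sides. Krt20 stood at 1943 CPM in colonocytes of high fat diet mouse 3 and 1776 CPM in those of control mouse 2, against 294 and 166 CPM in other cells of the same mice. Car1, the main cytosolic carbonic anhydrase of the colon, stood at 5224 and 4197 CPM in these colonocytes, against 1297 and 535 CPM in other cells. Ceacam20, an adhesion protein of microvilli, stood at 278 and 334 CPM, against 16.9 and 10.2 CPM. Guca2b, which encodes the gut peptide uroguanylin, went the other way, at 60.1 and 46.5 CPM in colonocytes against 76.3 and 81.3 CPM in other cells. Its close relative Guca2a, guanylin, stood at 1060 and 1249 CPM, against 372 and 354 CPM. Slc37a2, a sugar phosphate transporter, reached 41.2 and 41.9 CPM in colonocytes against 1.53 and 3.00 CPM. Fxyd4, a regulator of the sodium pump, was seen in 0 of 139 and 6 of 361 colonocytes, and Scnn1b, a sodium channel subunit, in 1 and 10.

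Colonocytes were not uniform, and the number of rule markers in a cell went with its other genes. In high fat diet mouse 3, 12 colonocytes held Slc26a3 and Aqp8 without Car4, 64 held Slc26a3 and Car4 without Aqp8, 19 held Aqp8 and Car4 without Slc26a3, and 44 held all 3. In control mouse 2 these numbers were 29, 66, 86 and 180. Just outside the rule lay 276 cells of high fat diet mouse 3 and 222 of control mouse 2 with exactly 1 marker. Krt20 stood at 381 and 161 CPM in cells with 1 marker, at 1411 and 772 CPM in cells with 2, and at 3174 and 2991 CPM in cells with all 3, in high fat diet mouse 3 and control mouse 2. Saa1, a retinol-binding serum amyloid protein made by gut epithelium, had its step later, at 151 and 275 CPM in cells with 2 markers and 2007 and 3480 CPM in cells with 3. Lypd8 stood at 4046 and 3224 CPM in cells with 2 markers and 13081 and 13481 CPM in cells with 3. Cells with 2 markers thus lay between those with 1 and those with 3 for these genes, in both mice.

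The proliferation marker Mki67 and the goblet gene Agr2 were instead lowest in cells with all 3 markers. In high fat diet mouse 3 Mki67 was not lower with 2 markers than with 1. Mki67 stood at 575 and 761 CPM in cells with 1 marker, 585 and 671 CPM with 2, and 227 and 333 CPM with all 3. Agr2, a folding enzyme for mucins, stood at 1941 and 3147 CPM with 1 marker, 753 and 2964 CPM with 2, and 106 and 571 CPM with all 3. In high fat diet mouse 3 the level of Agr2 was lower at each added marker, while in control mouse 2 most of its step lay between 2 and 3 markers. Because the rule markers are detected more easily in deep cells, the depth of the classes is given too: cells with 1, 2 and 3 markers had a median of 22497, 23854 and 20558.5 UMIs in high fat diet mouse 3, and of 19078.5, 23214 and 16977 UMIs in control mouse 2. Cells with all 3 markers were thus the shallowest of these classes in both mice.

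**Figure D2:**
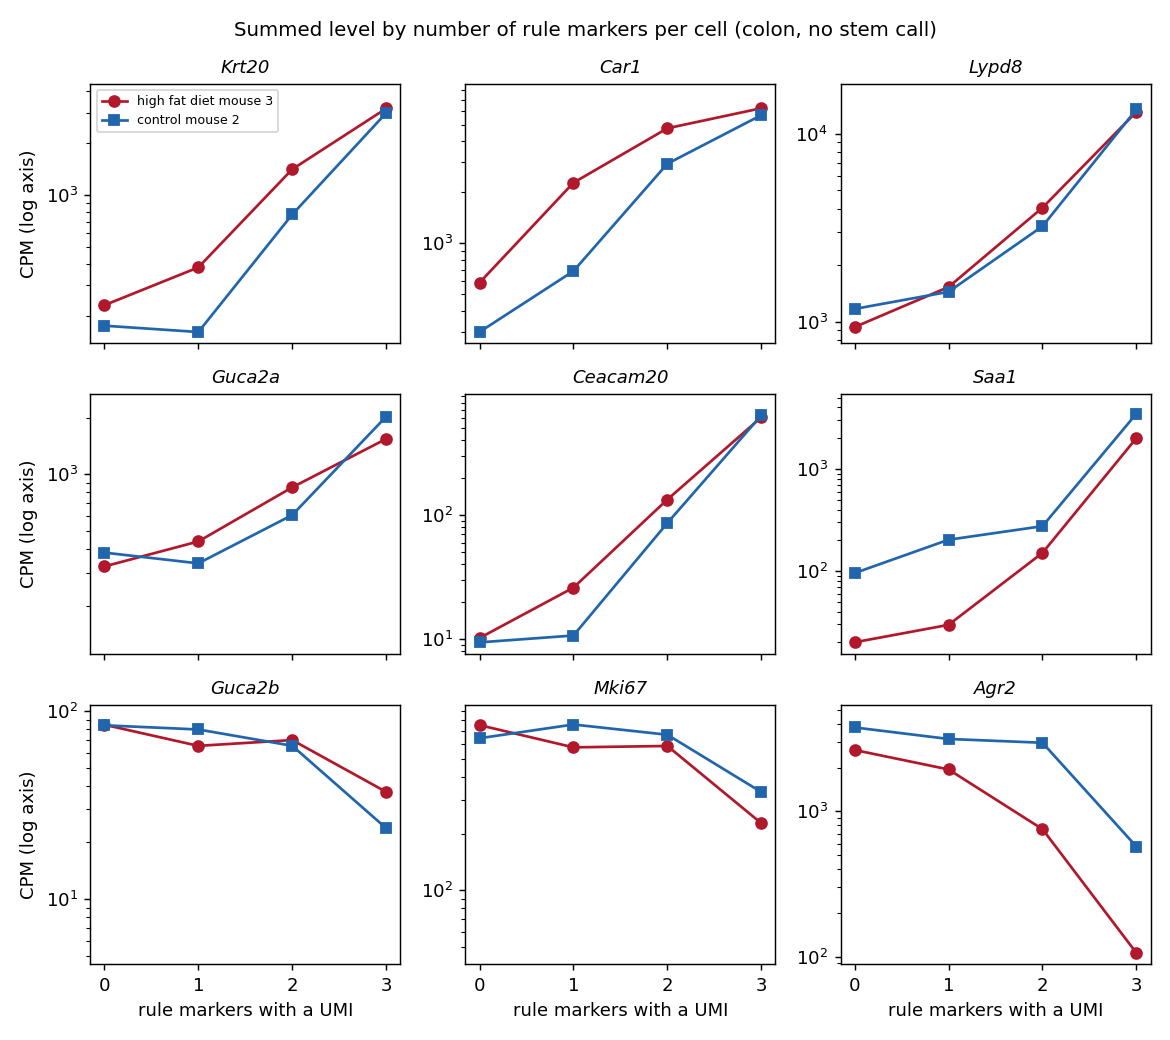
Summed CPM (log axes) of 9 genes in colon cells without the stem call that held 0, 1, 2 or 3 of the rule markers, in high fat diet mouse 3 (red circles) and control mouse 2 (blue squares). Krt20, Car1, Lypd8, Guca2a, Ceacam20 and Saa1 are highest in cells with 3 markers, where Guca2b, Mki67 and Agr2 are lowest.

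Cells that should lack colonocyte genes gave a measure of background at their own depth, which was lower than that of colonocytes. Of colon cells with at least 2 T, B or plasma cell markers and no UMI of the epithelial gene Epcam, 0 of 12 met the rule in high fat diet mouse 3 (median 8698 UMIs), which allows a share of up to 25%. In control mouse 2, 1 of 46 did so (2.17%, median 5800.5 UMIs). Of cells with such immune markers and an Epcam UMI, 10 of 41 (24.4%, median 19535 UMIs) met it in high fat diet mouse 3, and 19 of 59 (32.2%, median 13222 UMIs) in control mouse 2. These 29 cells carry markers of both kinds, and whether they are pairs of cells was not tested. Aqp8 and Car4 were seen in 10.9% and 21.7% of the Epcam-free immune cells of control mouse 2, and in none of the 12 of high fat diet mouse 3. In these cells of control mouse 2 they stood at 17.0 and 37.5 CPM, against 11.8 and 20.6 CPM in its other colon cells. Colonocytes had medians of 22839 and 20838 UMIs in high fat diet mouse 3 and control mouse 2. The shares of Epcam-free cells that met the rule thus do not give the background at colonocyte depth.

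With the 3 rule markers included, 221 genes were at least 2-fold higher in colonocytes than in other cells in both mice, and 17 were at least 2-fold lower (0.414% of 4104). Genes entered by their level in colonocytes, so a gene high only in other cells could not count as lower. With 50 CPM reached in either cell group (4811 genes, a filter chosen after seeing the data), 221 were higher and 37 lower, and with cells thinned to 2000 UMIs 473 were higher and 324 lower. The rule markers themselves, given as a description of the choice, stood at 506 and 482 CPM (Slc26a3, chromosome 12), 417 and 742 CPM (Aqp8, chromosome 7) and 662 and 1284 CPM (Car4, chromosome 11) in colonocytes of high fat diet mouse 3 and control mouse 2. The gene with the highest mean ratio after them was Clca6, of the chloride channel accessory family, at 243 and 532 CPM in colonocytes against 3.50 and 7.76 CPM in other cells (log2 ratios 4.23 and 4.93). Tgm3, a transglutaminase that crosslinks proteins, stood at 211 and 227 CPM against 5.79 and 4.77 CPM. Saa1 stood at 711 and 1725 CPM against 24.1 and 161 CPM (4.40 and 3.35). Emp1, an epithelial membrane protein, stood at 1005 and 741 CPM against 136 and 15.7 CPM (2.80 and 4.87), so its ratio was uneven between the mice. The other genes among the 15 highest outside the rule were AI747448, Gm14446, 2010109I03Rik, Pmp22, Ceacam20, Sprr2a3 (one of a family of near-identical copies), the drug-metabolising P450 gene Cyp2c55, the proton pump Atp12a, the adhesion protein Tmigd1, Sectm1b and the protease Prss30. Their log2 ratios in the 2 mice ran from 2.57 to 4.67. In the other cells of the 3 colonocyte-poor mice all 15 genes stood at 27.4 CPM or lower, whatever the diet.

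**Figure D3:**
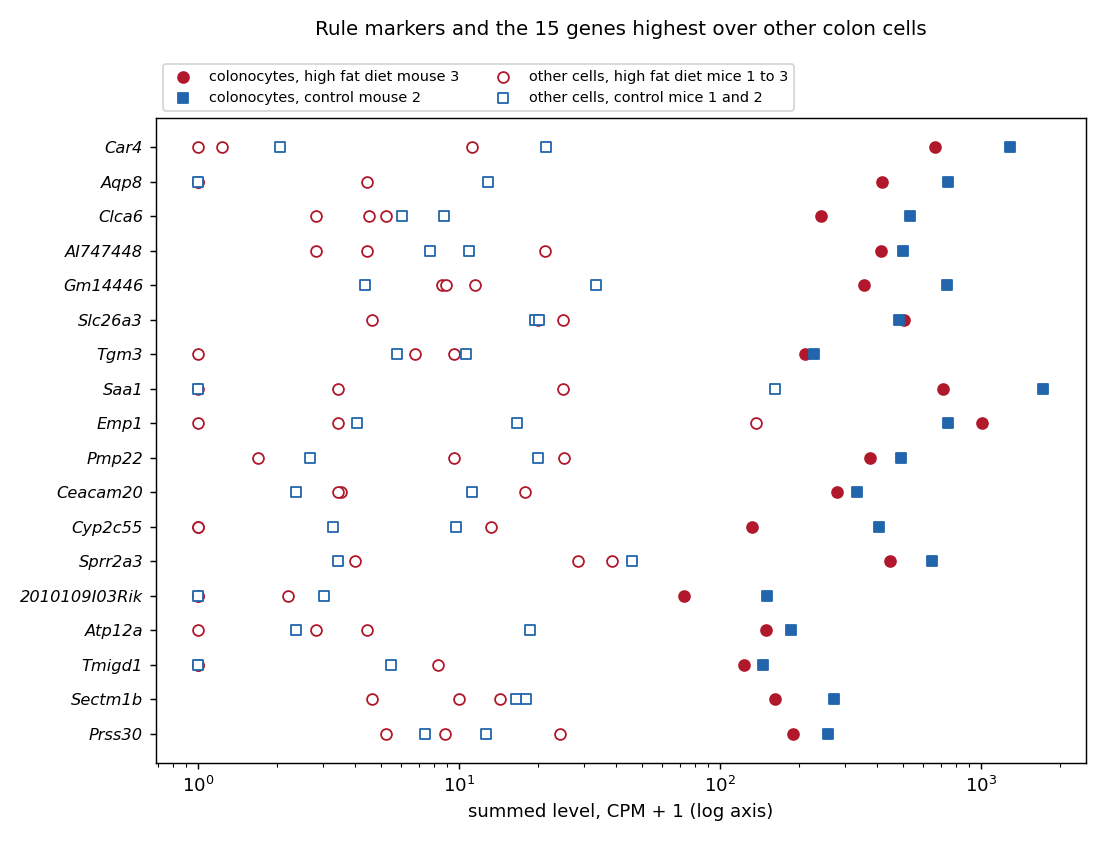
Summed level (CPM + 1, log axis) of the 3 rule markers and of the 15 genes with the highest mean ratio, in colonocytes of high fat diet mouse 3 and control mouse 2 (filled) and in other colon cells of all 5 mice (open). Every filled symbol lies right of every open symbol of its gene, and the 2 filled values of a gene are 1 mouse of each diet.

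Ion, water and acid-base transport genes were unevenly spread between colonocytes and other cells. Of 46 listed, 33 were measured. Of these, 11 were 2-fold or more higher in both mice and 1 was lower, against 5.38% and 0.414% of all genes. The 11 include Guca2a, which is also among the colonocyte markers above. Median log2 ratios were 0.62 and 0.48, against -0.06 and -0.10 over all genes measured. Of all 4104 genes, 1503 were above 0 and 2097 below 0 in both mice. The sulphate transporter Slc26a2 stood at 1156 and 929 CPM in colonocytes against 471 and 355 CPM in other cells. The sodium/proton exchanger Slc9a2 stood at 250 and 186 CPM against 54.9 and 26.6 CPM, and Slc9a3, the other luminal exchanger, at 51.3 and 31.5 CPM against 1.401 and 0.545 CPM. Atp12a, which pumps protons out in exchange for potassium, stood at 148 and 186 CPM against 3.44 and 17.7 CPM. The 1 gene that was 2-fold lower in both mice was Slc12a2, a basolateral chloride loader used in secretion, at 390 and 447 CPM against 1144 and 964 CPM. The sodium pump subunit Atp1b1 (1607 and 1609 CPM against 1108 and 1112 CPM) differed less than 2-fold, and so did the secretory chloride channel Cftr, at 179 and 185 CPM against 263 and 217 CPM.

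Genes of the mature surface cell and its brush border were higher as groups. Of 28 measured surface and terminal genes, 20 were at least 2-fold higher in both mice, against 5.38% of all genes, and 0 were lower. Their medians were 1.83 and 2.01, but the list holds several of the markers above. Lypd8 stood at 6773 and 7864 CPM in colonocytes against 1188 and 1338 CPM in other cells, and Muc3, a membrane mucin, at 1704 and 1890 CPM against 402 and 488 CPM. Of 19 brush border genes, 9 were at least 2-fold higher, against 5.38% of all genes, and all 19 were above 0 in both mice, as were 1503 of all 4104 genes (medians 0.92 and 0.89). Espn, an actin bundler, stood at 95.8 and 68.4 CPM against 14.8 and 8.85 CPM, and Cdhr5, a cadherin that links microvilli, at 417 and 503 CPM against 123 and 114 CPM. Vil1, or villin, at 1065 and 872 CPM against 559 and 465 CPM, did not reach 2-fold.

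Defence and detoxification genes followed in part. Of 13 measured antimicrobial and mucosal defence genes, 5 were at least 2-fold higher in both mice (medians 1.12 and 0.61), against 5.38% of all 4104 genes. The 5 include Lypd8, which is also among the colonocyte markers above. Duox2, an oxidase that makes hydrogen peroxide at the surface, stood at 368 and 437 CPM in colonocytes against 160 and 145 CPM, while Nox1, the other epithelial oxidase, was at 84.1 and 74.8 CPM against 161 and 134 CPM. Of 18 interferon response genes, 6 were at least 2-fold higher in both mice, Irf7 and Oasl2 among these 6, against 5.38% of all genes. Ifit1, an interferon-induced RNA binder, stood at 51.3 and 57.2 CPM against 4.01 and 3.00 CPM. Of 35 xenobiotic and glutathione genes, 11 were at least 2-fold higher in both mice (medians 0.23 and 0.30), against the same 5.38%. Ces2e, a carboxylesterase, stood at 336 and 307 CPM against 51.1 and 24.1 CPM, whereas the glutathione peroxidase Gpx2 was at 525 and 625 CPM against 911 and 957 CPM. MHC class II genes, which present peptides to T cells, were above 0 in both mice for 6 of 6 measured genes. So were 1503 of all 4104 genes, and none of the 6 reached 2-fold in both mice.

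Energy genes differed less. Of 33 measured PPAR targets and fatty acid oxidation genes, 3 were at least 2-fold higher in colonocytes of both mice, a share near the 5.38% of all genes, and 26 were above 0 in both, as were 1503 of all 4104 genes (medians 0.29 and 0.25). Among them were Slc25a20, the carnitine carrier of mitochondria, at 227 and 176 CPM in colonocytes against 60.1 and 23.4 CPM in other cells, and Mgll, which splits monoglycerides. Of 14 measured genes of short-chain fatty acid uptake and use, 1 was at least 2-fold higher in both mice, a share near the 5.38% of all genes. That gene was Slc16a5, at 124 and 62.4 CPM against 42.9 and 20.8 CPM. The gene belongs to the monocarboxylate transporter family, and what it carries was not examined. Apob, the protein of lipoprotein particles, stood at 343 and 285 CPM against 45.2 and 37.6 CPM. Of 67 nuclear-encoded oxidative phosphorylation genes, 0 reached 2-fold in either direction in both mice (medians 0.16 and 0.14). Over all genes 5.38% were higher and 0.414% lower. Of 17 sugar uptake and glycolysis genes likewise 0 reached 2-fold, and 16 were above 0 in both, as were 1503 of all 4104 genes (medians 0.50 and 0.47).

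Secretory genes stood lower in colonocytes than in other cells. Of 11 measured deep crypt secretory and goblet genes, 5 were at least 2-fold lower in both mice, against 0.414% of all 4104 genes. All 11 were below 0 in both mice (medians -2.05 and -0.97), as were 2097 of all 4104 genes. Reg4, the lectin that marks deep crypt secretory cells, stood at 172 and 443 CPM in colonocytes against 702 and 1285 CPM in other cells. Of 17 cell cycle genes, 1 was 2-fold lower in both mice, against 0.414% of all genes. Of the same 17, 16 were below 0 in both mice, as were 2097 of all 4104 genes (medians -0.50 and -0.44). Cells with at least 2 dividing cell markers made up 42.4% and 35.5% of colonocytes, against 54.8% and 44.6% of other cells. Of 6 measured stem cell genes, 1 was 2-fold lower in both mice, against 0.414% of all genes. That gene was Slc12a2, already given above as the lower transport gene. Of the 6, 5 were below 0 in both mice, as were 2097 of all 4104 genes. Prom1 was above 0 at 538 and 355 CPM against 303 and 204 CPM. The 10 genes with the lowest mean ratio, taken from genes at 50 CPM or more in other cells whether or not colonocytes reached that level, were led by hormone genes of enteroendocrine cells, and glucagon (Gcg) stood at 13.4 and 0.742 CPM against 728 and 49.7 CPM. Cells with at least 2 enteroendocrine markers made up 31.7% and 9.42% of colonocytes, against 20.8% and 9.81% of other cells. Chgb, Insl5, Pyy, Chga and Cpe are also hormones or granule proteins of such cells, Vim marks mesenchymal and immune cells, Igkc is an antibody light chain, and Zg16 and Mptx1 are secretory or crypt genes. Other cell types were at low levels: the 5 T cell markers summed to 17.2 and 47.4 CPM in colonocytes (37.4 and 316 CPM in other cells), and the 4 B and plasma cell markers in the table to 33.3 and 12.4 CPM (49.5 and 35.9 CPM).

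**Figure D4:**
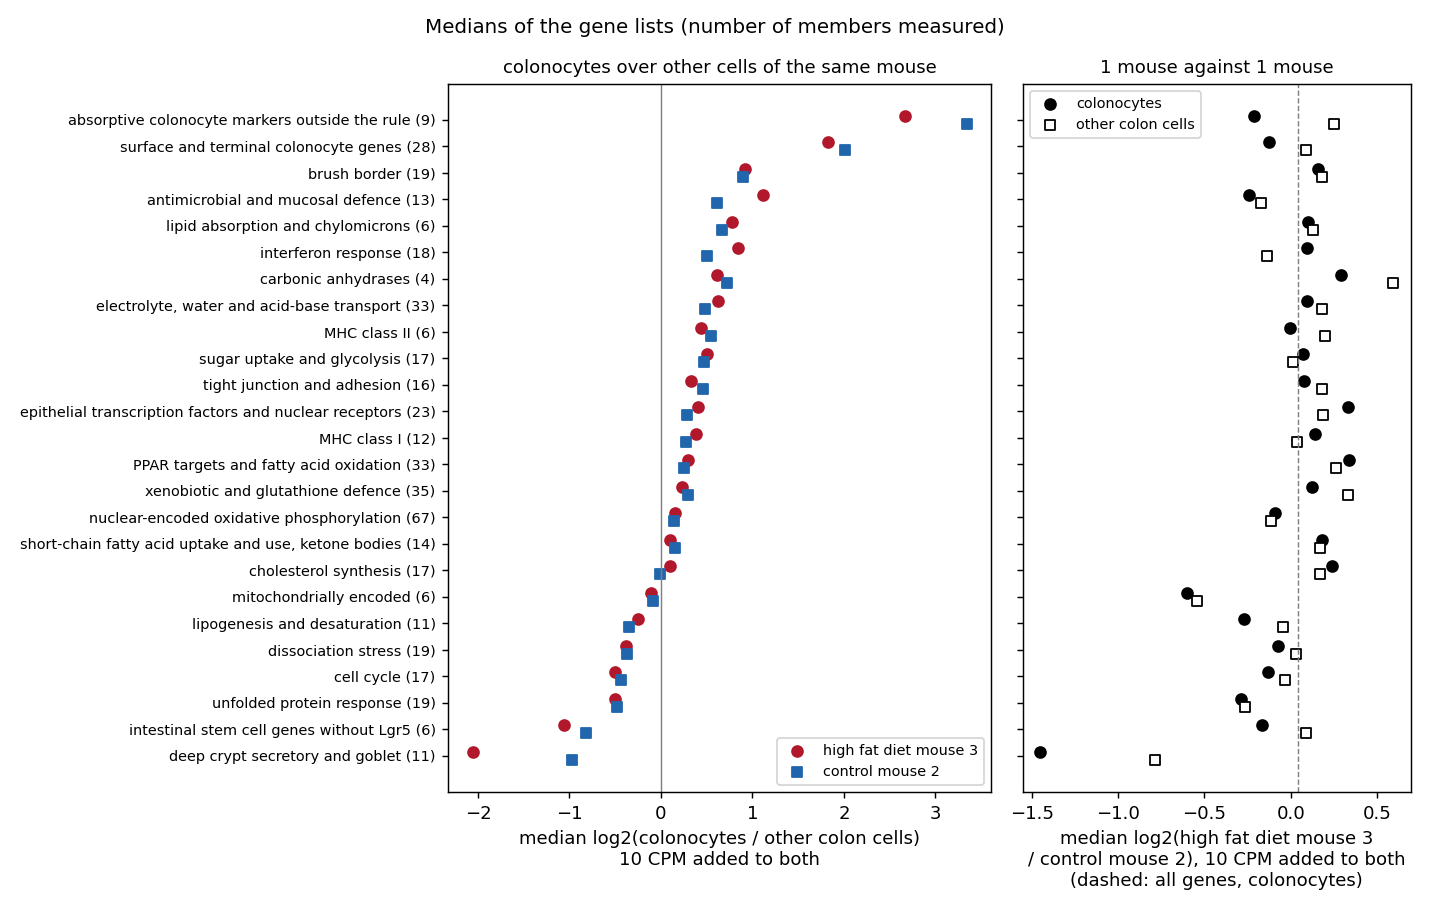
Medians over the measured members of each gene list (number in brackets). Left, log2 ratio of colonocytes to other colon cells in high fat diet mouse 3 (red) and control mouse 2 (blue), 2 cell groups set apart by the UMIs of the rule markers. Right, log2 ratio of high fat diet mouse 3 to control mouse 2 in colonocytes (filled) and in other colon cells (open), where the secretory list lies lowest at -1.45 and -0.79.

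Between the diets, colonocytes could be set side by side in 1 mouse each, so every difference below is also a difference between 2 animals and 2 libraries. Diet, animal and library cannot be told apart here. Of 4104 genes, 16 were at least 2-fold higher in colonocytes of high fat diet mouse 3 than in those of control mouse 2 (0.39%), and 81 were at least 2-fold lower (1.97%). The median log2 ratio of all genes was 0.04. The other colon cells of the same 2 mice mostly had the same sign, for 16 of the 16 higher genes and 78 of the 81 lower ones, and 9 and 31 of them were 2-fold or more there, as were 22 and 33 of all 4104 genes. The split was not stable: after thinning to 2000 UMIs (44 and 150 colonocytes) 455 genes were higher and 191 lower, and the cause was not tested. Of the 24 genes named here, 3 stayed past 2-fold in all 6 alternatives tried, Igha on the higher side and Hspa1a and Hspa1b on the lower. The 12 highest and the 12 lowest, named by size after the values were seen, are described in turn.

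Among the higher genes were some transporters. As a list, 33 ion, water and acid-base transport genes held 1 gene 2-fold higher and 1 lower. The 28 surface and terminal genes held 0 higher and 2 lower. Over all 4104 genes these shares were 0.39% and 1.97%. Slc40a1, or ferroportin, which exports iron, stood at 232 CPM in high fat diet mouse 3 (95% Poisson interval 217 to 248, for counting error only) and 95.9 CPM in control mouse 2 (89.3 to 103). Slc51a, one chain of the bile acid exporter of the basolateral membrane, stood at 82.4 CPM in high fat diet mouse 3 and 30.2 CPM in control mouse 2, a log2 ratio of 1.202. Its partner Slc51b was at 109 and 82.1 CPM (0.38), and the bile acid receptor gene Nr1h4 at 239 and 129 CPM (0.85). Slc5a8, a sodium-coupled carrier of short-chain fatty acids, stood at 514 CPM in high fat diet mouse 3 and 231 CPM in control mouse 2 (1.12). Slc6a14, an amino acid carrier, stood at 807 and 369 CPM (1.11). In the other cells of high fat diet mice 1 to 3, Slc5a8 stood at 141, 110 and 267 CPM, and in those of control mice 1 and 2 at 128 and 173 CPM, so the diets overlapped there. Slc40a1 stood at 17.3, 14.01 and 50.5 CPM in other cells of the high fat diet mice and 8.84 and 20.4 CPM in those of the control mice, which also overlapped.

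Apol10a, of the apolipoprotein L family, stood at 791 CPM in colonocytes of high fat diet mouse 3 and 307 CPM in those of control mouse 2 (1.34). Il1rn, the interleukin-1 receptor antagonist, stood at 99.4 and 37.1 CPM (1.22), and the myosin light chain kinase Mylk at 191 and 78.4 CPM (1.19). With cells of goblet or immune markers left out, Il1rn, Slc40a1, Slc51a and Mylk had log2 ratios of 0.26, 0.52, 0.71 and 0.91 and were no longer 2-fold. Mgat4c, a glycosyltransferase gene, stood at 1118 and 510 CPM (1.12). The 4 genes with the largest ratios were antibody genes, and for 3 of them 1 cell held most of the count. Ighg2b stood at 381 CPM in high fat diet mouse 3 and was listed at 0 in control mouse 2, but 1 cell held 95.9% of its count. For Iglv1 (103 CPM and 0) 1 cell held 98.7%, and for Igj (57.0 and 3.59 CPM) 82.8%. Igha stood at 107 and 16.6 CPM with 4.60% in its highest cell of high fat diet mouse 3, and was seen in 84.9% of these colonocytes and 16.1% of those of control mouse 2. Other cells of the same mice held 726 and 36.6 CPM of Igha, and plasma cell RNA in the colonocyte sums was not tested as a source.

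Lower genes in colonocytes of high fat diet mouse 3 were led by secretory genes. Of 11 measured deep crypt secretory and goblet genes, 10 were at least 2-fold lower, against 1.97% of all 4104 genes, and the median log2 ratio was -1.45. Zg16, a mucus lectin that binds bacteria, stood at 15.6 CPM in high fat diet mouse 3 (11.8 to 20.2) and 410 CPM in control mouse 2 (396 to 424). Clca3, a secreted mucus protein, stood at 33.0 and 578 CPM, Spink4 at 126 and 826 CPM and Fcgbp, which binds mucin, at 120 and 749 CPM. Retnlb, an antibacterial goblet peptide, stood at 1.64 and 165 CPM, and Ang4, an antibacterial ribonuclease, at 1.64 and 83.8 CPM. Mptx2, a pentraxin with a close copy in the genome, was listed at 0 in high fat diet mouse 3 and stood at 75.8 CPM in control mouse 2. In the other cells the diets overlapped for the 15 goblet list genes in the table, which summed to 5501, 15305 and 6543 CPM in high fat diet mice 1 to 3, and 3644 and 11940 CPM in control mice 1 and 2. Cells with at least 2 goblet markers made up 79.1% of colonocytes in high fat diet mouse 3 and 90.3% in control mouse 2 (78.0% and 84.8% of other cells), so a UMI of these genes does not mark a goblet cell here. With those cells and cells with immune markers left out, 28 and 32 colonocytes remained, 245 genes were higher and 131 lower. Zg16, Clca3, Ang4 and Retnlb then had log2 ratios of -0.92, -0.91, -0.85 and -0.15, none past 2-fold, but goblet genes chose the cells left out, so low levels of such genes are set by that choice. In control mouse 2, 1 cell held 38.7% of the Zg16 count.

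Among the 12 lowest genes named here, heat shock genes and genes of hormone granule proteins made up most of the rest. Hspa1a and Hspa1b, near-identical copies of the inducible HSP70 gene whose reads may be split between them, stood at 27.0 and 13.6 CPM in high fat diet mouse 3 and 261 and 190 CPM in control mouse 2. Other cells of the 2 mice differed alike, at 38.8 and 19.8 CPM and 292 and 233 CPM. Chgb stood at 27.3 CPM in high fat diet mouse 3 and 361 CPM in control mouse 2, where 1 cell held 65.0% of the count. Chga stood at 11.5 and 155 CPM, with 60.5% in 1 cell. Both genes were instead higher in high fat diet mouse 3 when all 3 rule markers were required, with log2 ratios of 0.71 and 0.60. Gzma, a granule protease of cytotoxic lymphocytes, stood at 8.46 and 76.8 CPM, and 1 cell held 48.1% of the count in control mouse 2. The median share of mitochondrial UMIs was 15.02% in colonocytes of high fat diet mouse 3 and 16.3% in those of control mouse 2 (14.6% and 13.8% in other cells).

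Fatty acid oxidation genes were slightly higher in high fat diet mouse 3 without reaching 2-fold. Of 33 measured PPAR targets and oxidation genes, 30 had a ratio above 0 and 3 below, with a median of 0.34, against 2301 above and 1803 below and a median of 0.04 over all 4104 genes. None reached 2-fold in either direction. In the other colon cells of the same 2 mice the median of these genes was 0.26, against 0.04 over all 4104 genes. The difference between the mice was thus not particular to colonocytes. Cpt1a, the gate that passes fatty acids into mitochondria (chromosome 19, 3322334 to 3385733, mm10), stood at 447 CPM in colonocytes of high fat diet mouse 3 (425 to 469) and 220 CPM in those of control mouse 2 (210 to 230), a log2 ratio of 0.99. Mgll stood at 74.2 and 32.5 CPM (0.99). In other colon cells Cpt1a stood at 305, 207 and 304 CPM in high fat diet mice 1 to 3, and at 215 and 144 CPM in control mice 1 and 2. Its log2 ratio of high fat diet mouse 3 to control mouse 2 was 1.03 in these cells. The diets overlapped there, since high fat diet mouse 2 lay below control mouse 1, and the log2 fold change was 0.62 (SE 0.27, edgeR quasi-likelihood adjusted p = 0.999).

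Genes that make fatty acids went in both directions. Of 11 measured lipogenesis and desaturation genes, 1 was 2-fold lower, against 1.97% of all 4104 genes, and 0 were higher. Of the 11, 7 were below 0 and 4 above, against 1803 below and 2301 above of all 4104 genes. The median was -0.27, against 0.04 over all genes. The 2-fold lower gene was Scd1, a fatty acid desaturase, at 19.4 CPM in colonocytes of high fat diet mouse 3 and 70.5 CPM in those of control mouse 2 (-1.45). In other cells Scd1 stood at 181, 110 and 17.8 CPM in high fat diet mice 1 to 3 and at 57.7 and 62.8 CPM in control mice 1 and 2, so high fat diet mice 1 and 2 lay above both control mice and mouse 3 below them. Scd2, its relative, stood at 800 and 1032 CPM in colonocytes (-0.36). Of 17 cholesterol synthesis genes none reached 2-fold, and the median was 0.24. Among colonocyte markers, Saa1 was lower at 711 CPM in high fat diet mouse 3 and 1725 CPM in control mouse 2 (-1.27), and Cyp2c55 at 131 and 405 CPM (-1.56), while Krt20 and Lypd8 had ratios of 0.13 and -0.22. The rule markers, which cannot be tested, had ratios of 0.07 (Slc26a3), -0.82 (Aqp8) and -0.95 (Car4).

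**Figure D5:**
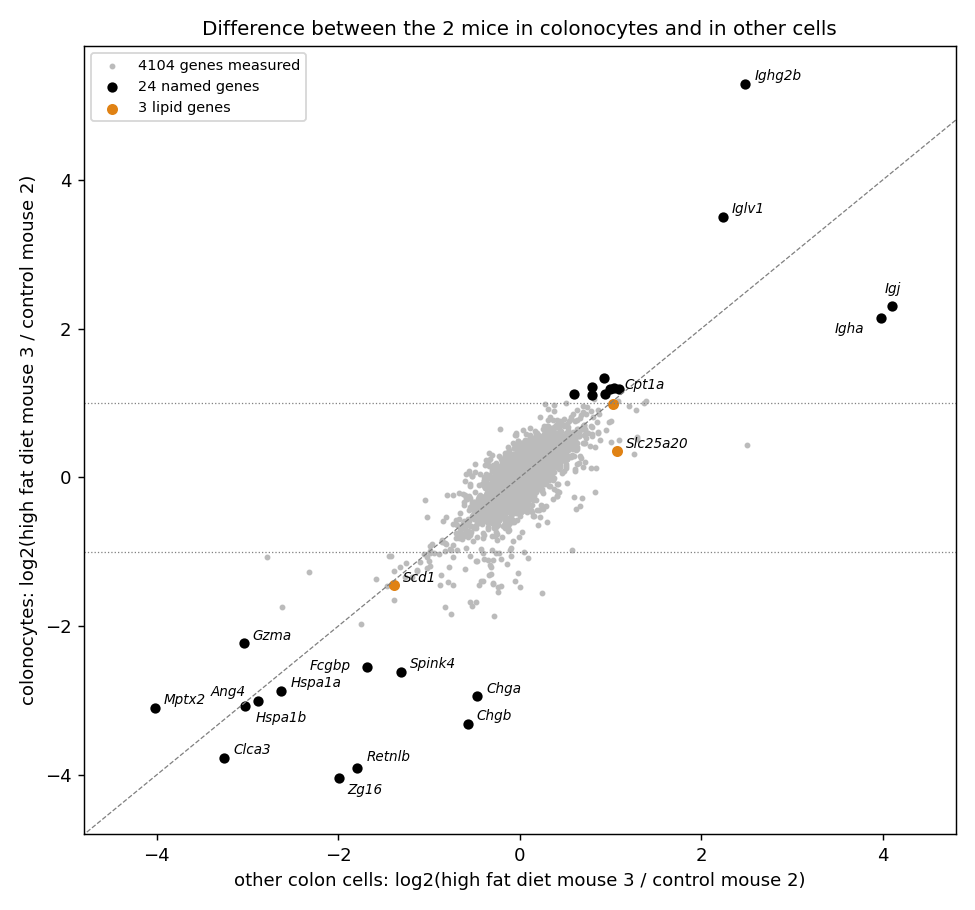
Log2 ratio of high fat diet mouse 3 to control mouse 2 in colonocytes (vertical) and in other colon cells (horizontal) for 4104 genes, 10 CPM added to both mice, with dotted lines at 2-fold. The 24 named genes (black) and 3 lipid genes (orange) show where the 2 axes differ: Chgb and Chga lie near 0 for other cells, at -0.57 and -0.47, and near -3 for colonocytes, at -3.32 and -2.94.

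For 33 genes (0.804%) the log2 ratio between these 2 mice differed by 1 or more between colonocytes and other cells. That count was 602 after thinning, 243 with cells of goblet or immune markers left out and 156 with no filter on low values. The 6 largest differences were those of Ighg2b (2.81), Chgb (-2.74), Chga (-2.48), Retnlb (-2.12), Emp1 (-2.07) and Zg16 (-2.04). Emp1 stood at 1005 and 741 CPM in colonocytes but at 136 and 15.7 CPM in other cells, so it differed between the 2 mice outside colonocytes more than within them. No test of this difference between cell groups was possible with 1 mouse per diet.

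Replicated tests were possible in 2 wider sets of cells. In the other colon cells of all 5 mice, edgeR's quasi-likelihood test with Benjamini-Hochberg adjustment passed 0 of 12534 genes (0%), and 168 had an unadjusted p below 0.05. On counts simulated from these cells, the test recovered 46.7% of genes set to a 4-fold change and 87.1% of those set to 16-fold. A count of 0 therefore does not show that no gene differed by diet. DESeq2 passed 5. By limma voom 0 passed, and 132 lay below 0.05 unadjusted. In colon cells with at least 1 of the 3 markers, a set chosen after the data had been seen, 2 high fat diet mice (20 and 415 cells) could be set against 2 control mice (75 and 583 cells). There 0 of 11705 genes passed by edgeR (0%), and 62 lay below 0.05 before adjustment. In that set Cpt1a had a log2 fold change of 0.69 and Scd1 of -1.95, and neither passed. Cells with exactly 1 marker made up 19 of the 20 and 276 of the 415 cells of the high fat diet mice, and 73 of the 75 and 222 of the 583 cells of the control mice, so this set is not one of colonocytes.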

How the data were processed

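The deposited values are raw UMI counts per gene and cell in 15 libraries of 5 mice (17185 genes, 18919 cells), as the values in the file show, and the authors' cell table gives organ, diet, mouse and stem call. The build was mm10, per the submitters' processing notes, and the aligner and counting tool are not given in the sources used here. One control mouse was matched to its label by elimination. No cell filter was added, no doublet caller was run, and no column of another series was present.

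Counts of each mouse's colonocytes and other cells without the stem call were summed. The planned edgeR test needed 2 mice per diet with at least 10 colonocytes, and only 1 per diet had them, so colonocyte sums are described, not tested. A gene was measured at 50 CPM or more in colonocytes of either mouse, ratios had 10 CPM added, and 2-fold was the threshold. Other cells were tested over 5 mice with edgeR 4.0.16 (TMM, quasi-likelihood, Benjamini-Hochberg, 0.05), limma 3.58.1 and DESeq2 1.42.0. P-values set the difference between the diets against the spread between these mice. Intervals are exact Poisson or Clopper-Pearson at 95%. The edgeR test of other cells was tried on simulated counts.

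The planned rule named the 15 highest and 10 lowest genes against other cells and the most abundant 4 members of each list. The 12 highest and 12 lowest genes by diet replaced genes chosen by p, and other list members were chosen after their values were seen. Members and lists were chosen with earlier results of these data known. Near-identical copies (Hspa1a and Hspa1b, Mptx1 and Mptx2, Sprr2a3, Saa1, antibody segments) have uncertain values.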

Additional observations from a re-analysis of the deposited data

Results flagged for a closer look

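Colon cells with the stem call were left out of the colonocytes, but 57 of 698 of them (8.17%) also held at least 2 of Slc26a3, Aqp8 and Car4, and they are given because they lie outside the cells described above. High fat diet mice 1 to 3 had 3 of 79, 0 of 27 and 14 of 200 such cells (3.80%, 0% and 7%), and control mice 1 and 2 had 0 of 279 and 40 of 113 (0% and 35.4%). The call rests on 1 UMI of Lgr5 or eGFP, and free RNA as a source was not tested.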

How the results depend on the processing

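The count of 97 genes past 2-fold between the diets in colonocytes was 63 with at least 3 UMIs of 2 markers, 646 with cells thinned to 2000 UMIs, 376 with mixed cells left out and 146 with no filter on low values. It was 75 with all 3 markers, 88 with stem-called cells included and 98 with other scaling. By edgeR 0 genes passed over all 5 mice with no minimum of colonocytes (5 unadjusted), and 0 in cells with at least 1 marker, an alternative chosen after seeing the data. The 33 genes whose ratio differed from other cells became 602 thinned, 243 with mixed cells left out and 156 with no filter. The 221 and 17 genes 2-fold higher and lower than in other cells became 473 and 324 thinned, and 221 and 37 with the 50 CPM filter on either cell group, chosen after seeing the data. Across 24 named genes and 6 alternatives, 63 of 144 values kept within the limits set, 73 moved and 8 reversed. Chgb reversed to 0.71 with all 3 markers, 0.66 with at least 3 UMIs, 1.73 thinned and 0.59 with mixed cells left out. Chga reversed to 0.60 with all 3 markers and 0.14 with at least 3 UMIs, and Spink4 and Fcgbp to 0.20 and 0.31 with mixed cells left out, a step that uses both genes to choose cells. The cause was not tested.

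The difference in share ran from -40.3 to 5.27 percentage points when 1 mouse was left out, and reversed without control mouse 2. In other cells, 0 genes passed by edgeR, 5 by DESeq2 and 165 with the replicate block, and 0 to 1 when 1 mouse was left out (1 without high fat diet mouse 3). Same-numbered mice are different animals, and their deviations correlated at 0.59 and 0.44 over only 2 pairs. Other count-model alternatives in colonocytes (another normalization, DESeq2, limma voom, a block, leaving out a mouse) were not run, since 1 mouse per diet had enough of them. Depth limits the 3 shallow libraries, and 139 colonocytes limit the low genes of high fat diet mouse 3.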

Other observations

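The 3-gene rule was also met by cells of the small intestine without the stem call. In the proximal part it was met by 85 of 872, 599 of 1438 and 506 of 1363 cells of high fat diet mice 1 to 3, and by 139 of 1040 and 348 of 1303 cells of control mice 1 and 2. In the distal part it was met by 89 of 662, 79 of 697 and 389 of 1389 cells of the high fat diet mice, and by 61 of 849 and 341 of 1014 cells of the control mice. Aqp8, one of the rule genes, was listed at 0 in 9 of these 10 groups and stood at 0.871 CPM in the proximal cells of control mouse 1.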
